A study of Mus musculus with 32 samples.

Results

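Chronic glucocorticoid exposure changes how adipose tissue and liver handle lipid, and the study asked how a diet rich in protein alters the response of male mice to corticosterone. Described here are 28 genes of cholesterol biosynthesis and of its control by the transcription factor SREBP2, out of 47643 gene IDs in the count table. They were taken by mouse gene symbol from a fixed list, which was chosen with earlier results of these data known. The shares of members called are therefore not those of a list independent of the data. Of the 28, 20 encode enzymes of the mevalonate and sterol pathway, Ggps1 of its geranylgeranyl branch included. The mice were C57BL/6 males (C57BL/6J in the study's methods), 10 weeks old, that for 7 days drank corticosterone (cort) or its ethanol vehicle (veh) in their water and ate an isocaloric diet with 20% (normal-protein diet, NPD) or 60% (high-protein diet, HPD) of its energy from protein, with whey as the protein source and less corn starch in the HPD. Epididymal white adipose tissue (eWAT) and liver each gave 16 libraries of 3′-end mRNA sequencing from total RNA, 4 for each combination of treatment and diet (Veh NPD, Cort NPD, Veh HPD, Cort HPD). Both tissues are mixtures of cells, so fewer cells of a type and less RNA per cell cannot be told apart. Replicates are labelled as separate samples of a group, and the labels do not say whether same-numbered eWAT and liver libraries came from 1 mouse.

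Cells make cholesterol from acetyl-CoA in the cytosol and the endoplasmic reticulum, through mevalonate, isoprenoid diphosphates, squalene and lanosterol. SREBP2, encoded by Srebf2, is a membrane-bound transcription factor that raises most of these genes: when sterols are low, Scap escorts it from the endoplasmic reticulum to the Golgi for cleavage, and when sterols are high, Insig1 and Insig2 hold Scap back. Liver is a main site of cholesterol synthesis and export, whereas adipocytes make little and store a large pool of it, mostly unesterified. The remaining members transfer sterols (Stard4), esterify them (Soat1, Soat2) or activate acetoacetate for lipid synthesis (Aacs).

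The classical SREBP-binding element has the core TCACCCCAC, and it often lies near CCAAT and GGGCGG boxes, which bind the factors NF-Y and Sp1. In the RefSeq promoter windows of GRCm38.p6, each of 300 bases (250 before a gene's start and 50 after it), 23 of the 28 members had at least 1 window, with 29 windows in all. Searched on both strands, TCACCCCAC was found in 1 of the 29 windows, that of Hmgcs1, and in 0.551% of all 32851 windows. The looser TCACNCCAC, which contains the first motif, gave the same member window and 1.24% of all windows. CCAAT was present in 20 of the 29 windows (69.0%) and in 37.4% of all windows, and GGGCGG in 23 of the 29 (79.3%) and in 35.7% of all. These matches are descriptions of letters and were not tested. The bases before the start of the 4 members called on both diets in 1 tissue, Hmgcs1 and Mvd in eWAT and Sc5d and Insig1 in liver, are printed 5′ to 3′ on the strand of the gene, with the listed motifs in capitals, ATTGG and CCGCCC being CCAAT and GGGCGG on the other strand.

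Hmgcs1, chr13:119690101-119690350, plus strand: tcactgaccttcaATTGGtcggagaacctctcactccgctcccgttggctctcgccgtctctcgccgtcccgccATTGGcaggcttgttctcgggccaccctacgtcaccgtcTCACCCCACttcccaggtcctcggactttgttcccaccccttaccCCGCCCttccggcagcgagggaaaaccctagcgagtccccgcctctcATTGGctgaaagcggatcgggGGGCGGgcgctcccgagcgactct
Mvd, chr8:122443423-122443672, minus strand: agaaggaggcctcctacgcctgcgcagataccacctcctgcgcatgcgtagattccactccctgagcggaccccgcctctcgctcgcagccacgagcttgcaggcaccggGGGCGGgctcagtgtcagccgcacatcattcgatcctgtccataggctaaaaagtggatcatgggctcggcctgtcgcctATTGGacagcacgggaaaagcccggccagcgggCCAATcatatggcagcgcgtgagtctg
Sc5d, chr9:42264301-42264550, minus strand: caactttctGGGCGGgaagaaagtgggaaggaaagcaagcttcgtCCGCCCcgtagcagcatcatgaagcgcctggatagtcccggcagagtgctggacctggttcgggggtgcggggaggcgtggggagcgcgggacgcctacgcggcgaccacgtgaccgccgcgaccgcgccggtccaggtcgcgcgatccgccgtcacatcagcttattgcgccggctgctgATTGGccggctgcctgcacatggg
Insig1, chr5:28071162-28071362, plus strand: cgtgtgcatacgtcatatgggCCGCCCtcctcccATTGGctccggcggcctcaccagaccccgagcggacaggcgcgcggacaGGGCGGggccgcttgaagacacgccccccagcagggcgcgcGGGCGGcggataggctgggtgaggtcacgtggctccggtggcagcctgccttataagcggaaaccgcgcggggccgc

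The Hmgcs1 window held the SREBP core from 137 to 129 bases before the start, with CCAAT boxes at 176 and at 45 on either side of it. Mvd had a GGGCGG box from 140 to 135 and 2 CCAAT boxes within the last 60 bases. Insig1, shown for the 201 bases up to its annotated first exon, had GGGCGG or its complement at 229, 167 and 126 bases before the RefSeq start. Sc5d had GGGCGG or its complement at 241 and 205 bases before the start and 1 CCAAT box at 24. The RefSeq starts of Hmgcs1 and Sc5d lie outside the annotated gene, and 0 of the 3 annotated transcripts of Sc5d held the end of its window. The place of its first base is therefore less certain. The genes themselves are annotated on GRCm38 at chr13:119690379-119708260 (Hmgcs1, ENSMUSG00000093930), chr8:122433601-122443422 (Mvd, ENSMUSG00000006517), chr9:42251595-42264256 (Sc5d, ENSMUSG00000032018) and chr5:28071363-28078662 (Insig1, ENSMUSG00000045294).

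Counts per library totalled 9794683 to 18057936 in eWAT and 8933307 to 17447524 in liver, where replicate 4 of Veh HPD (13513747 counts) was left out because it stood apart from the rest, and results with it added are given where they differ. It held cell-cycle transcripts such as Cdk1 at 109 CPM (read counts normalised to the library total after scaling by TMM factors) against at most 5.68 in the other liver libraries, and 21 of the 28 members there lay within the range of the other 15. Adipocyte markers summed to 30019 to 54526 CPM in eWAT and 22.6 to 84.7 in liver, and hepatocyte markers to 78156 to 270202 in liver and 916 to 3999 in eWAT, so both tissues carried their own markers. Of the 11 epididymis and testis markers, 9081 CPM were found in replicate 4 of eWAT Cort HPD and at most 11.03 in any other eWAT library. The filter on low counts kept 27 members among 15187 genes in eWAT, where Soat2 was at 0 to 2.34 CPM, and all 28 among 12391 genes in liver. A gene was called where the adjusted p (edgeR quasi-likelihood test, Benjamini-Hochberg over all genes of the tissue) was under 0.05, and fold changes are given on the log2 scale ± SE.

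In eWAT of mice on the NPD, cort raised 9 enzymes of the pathway and lowered 1. The 10 called members of 27 tested compared with 7.98% of all genes tested. Enzymes from the first step (Acat2, Hmgcs1, Mvd) through squalene synthesis (Fdft1) to the last sterol steps (Cyp51, Nsdhl, Ebp, Sc5d, Dhcr7) were higher with cort, and Lbr was lower. The median log2 fold change was 0.28 over the members and 0.64 over the 20 enzymes, against -0.02 over all genes, and 18 of the 20 enzymes had a positive value against 47.5% of all genes.

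**Figure D1:**
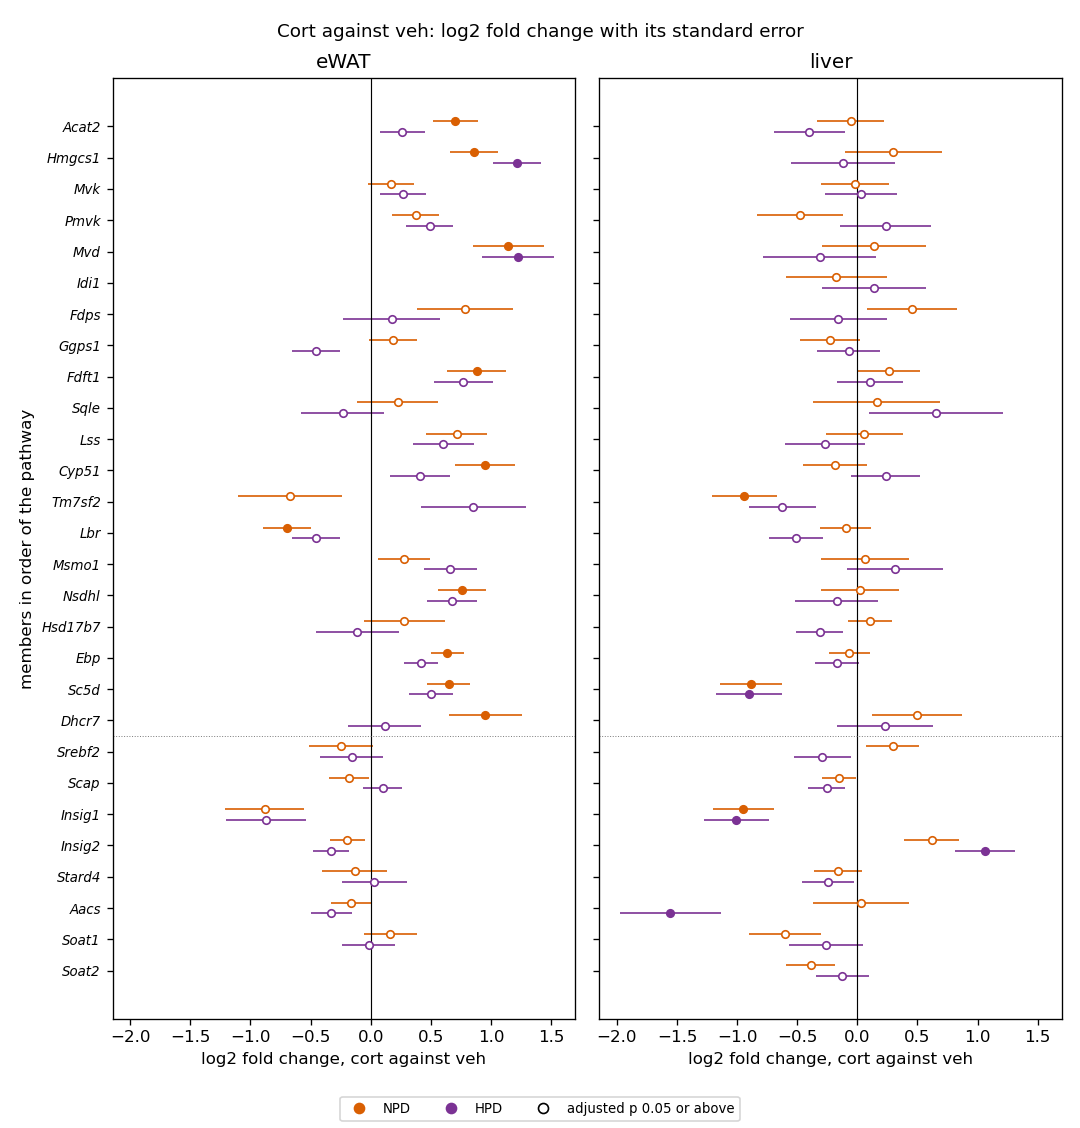
Log2 fold change of cort against veh (x axis, with SE bars) for the members in pathway order (y axis) in eWAT and liver, on the NPD in orange and the HPD in purple, with filled points where the adjusted p was under 0.05; Idi1 is not drawn and Soat2 was not tested in eWAT. Most enzymes lie to the right of 0 in eWAT and around 0 in liver, where the filled points are Tm7sf2, Sc5d, Insig1, Insig2 and Aacs.

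At the entry of the pathway, Acat2, the cytosolic thiolase that joins acetyl-CoA units, stood at 124, 83.5, 80.5 and 97.6 CPM in Veh NPD, 199, 118, 149 and 161 in Cort NPD, 74.4, 52.3, 71.5 and 109 in Veh HPD and 80.0, 102, 91.7 and 93.8 in Cort HPD. On the NPD the lowest cort library lay below the highest veh library, and the other 3 above it, with a log2 fold change of 0.70 ± 0.19 (adjusted p = 0.02). Part of the 3′ end of Acat2 is nearly the same as that of Acat3 (153 bases, 97.4% identity), so its counts are less certain. Hmgcs1, the cytosolic HMG-CoA synthase, was called on both diets. Its level was 166, 137, 232 and 228 CPM in Veh NPD, 332, 366, 364 and 320.5 in Cort NPD, 116, 90.0, 142 and 78.3 in Veh HPD and 311, 284, 221 and 174 in Cort HPD. Every cort library lay above every veh library on the same diet. The log2 difference was 0.86 ± 0.20 on the NPD (adjusted p = 0.0091) and 1.21 ± 0.20 on the HPD (adjusted p = 0.00068).

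Of the mevalonate enzymes, Mvd, which decarboxylates mevalonate diphosphate to isopentenyl diphosphate, was called on both diets. It stood at 6.98, 6.78, 7.33 and 9.16 CPM in Veh NPD, 20.4, 9.38, 12.9 and 24.4 in Cort NPD, 3.68, 4.49, 4.04 and 4.67 in Veh HPD and 5.65, 10.8, 9.11 and 13.97 in Cort HPD. On neither diet did the cort and veh libraries overlap, and the log2 fold changes were 1.15 ± 0.29 (adjusted p = 0.013) and 1.23 ± 0.30 (adjusted p = 0.012). The kinases Mvk and Pmvk, which act just before it, were not called on either diet. Mvk was at 20.9 ± 4.05 CPM (SD, n = 4) in Veh NPD and 23.5 ± 3.11 in Cort NPD, and Pmvk at 55.7 ± 10.4 and 72.2 ± 20.7. For the isoprenoid enzymes that follow, Fdps, the farnesyl diphosphate synthase, was at 11.4, 4.32, 5.11 and 14.9 CPM in Veh NPD and 19.8, 9.38, 11.2 and 21.4 in Cort NPD. These groups overlapped. Ggps1, which leads to geranylgeranyl diphosphate and away from sterols, was at 16.5 ± 4.36 CPM in Veh NPD and 18.8 ± 2.70 in Cort NPD, and Idi1, the isomerase of isopentenyl diphosphate, was at 0 to 2.58 CPM over the 16 libraries, too low to compare. The 3′ ends of these genes resemble other annotated genes, Gm13502 for Idi1 (284 bases, 100% identity) and Gm43738 for Fdps (300 bases, 100%). For Ggps1 the similar gene was Gm5630 (300 bases, 97.7%). How reads that match several genes were counted is not given in the sources used here. The levels of Fdps, Ggps1 and Idi1 are therefore less certain and may be too low.

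Fdft1, the squalene synthase that commits farnesyl diphosphate to sterols, stood at 10.1, 16.9, 12.2 and 14.6 CPM in Veh NPD, 26.3, 15.3, 29.4 and 28.2 in Cort NPD, 10.7, 7.52, 14.6 and 17.2 in Veh HPD and 19.04, 27.9, 19.9 and 18.6 in Cort HPD. All but 1 of the Cort NPD libraries lay above all Veh NPD libraries, and on the HPD the groups did not overlap. It was called on the NPD with a log2 fold change of 0.88 ± 0.24 (adjusted p = 0.022) and had 0.77 ± 0.24 on the HPD (adjusted p = 0.059). The 3′ end of Fdft1 overlaps that of Ctsb on the other strand, a gene with 302785 counts over all libraries against 8050 for Fdft1. Whether the counting used strand is not given in the sources used here, and Ctsb itself was not called on the NPD. Sqle, the squalene epoxidase, was at 10.1, 7.82, 8.60 and 8.89 CPM in Veh NPD and 8.49, 9.16, 6.39 and 17.4 in Cort NPD, and Lss, the lanosterol synthase, at 21.3, 12.7, 14.4 and 17.3 and 24.1, 29.7, 14.6 and 39.4. Neither was called on either diet, and in Cort NPD both were highest in replicate 4.

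Among the enzymes that turn lanosterol into cholesterol, Cyp51, the lanosterol demethylase, stood at 45.5, 32.8, 35.6 and 64.6 CPM in Veh NPD, 85.9, 67.0, 80.3 and 112 in Cort NPD, 31.4, 22.6, 23.1 and 45.0 in Veh HPD and 35.3, 50.4, 29.6 and 46.7 in Cort HPD. The NPD groups did not overlap and the HPD groups did. The log2 difference was 0.95 ± 0.25 on the NPD (adjusted p = 0.024) and 0.41 ± 0.25 on the HPD (adjusted p = 0.42). Its 3′ end overlaps that of Akap9 on the other strand, which had a similar total count (31495 against 31463) and was not called on the NPD. Nsdhl, a dehydrogenase that helps to remove the methyl groups of lanosterol, stood at 57.4, 44.7, 52.9 and 59.8 CPM in Veh NPD, 103, 84.7, 70.4 and 105 in Cort NPD, 40.1, 17.1, 27.4 and 40.7 in Veh HPD and 43.7, 58.9, 45.3 and 52.2 in Cort HPD. The cort libraries lay above the veh libraries on both diets. It was called on the NPD with 0.76 ± 0.20 (adjusted p = 0.02) and had 0.68 ± 0.20 on the HPD (adjusted p = 0.051). The oxygenase Msmo1 and the keto reductase Hsd17b7, which work with Nsdhl, were not called. Msmo1 was at 28.9 ± 7.88 CPM in Veh NPD and 35.1 ± 6.58 in Cort NPD, and Hsd17b7 at 13.1 ± 6.90 and 15.8 ± 5.44.

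Ebp, the sterol isomerase, stood at 67.6, 51.7, 64.4 and 58.0 CPM in Veh NPD, 97.9, 84.9, 100.1 and 93.2 in Cort NPD, 53.3, 44.4, 66.7 and 73.6 in Veh HPD and 84.2, 72.4, 76.9 and 84.4 in Cort HPD. The NPD groups were apart and the HPD groups met, with replicate 2 of Cort HPD below replicate 4 of Veh HPD. The log2 difference was 0.64 ± 0.14 on the NPD (adjusted p = 0.0036) and 0.42 ± 0.14 on the HPD (adjusted p = 0.075). Sc5d, the desaturase that acts next, stood at 74.9, 66.5, 68.6 and 95.6 CPM in Veh NPD, 102, 101, 98.4 and 177 in Cort NPD, 60.8, 54.0, 79.9 and 85.0 in Veh HPD and 95.7, 112, 99.4 and 88.5 in Cort HPD. Both cort groups lay above their veh groups, with 0.65 ± 0.18 on the NPD (adjusted p = 0.024) and 0.50 ± 0.18 on the HPD (adjusted p = 0.11). Dhcr7, the reductase that makes cholesterol in the last step, was at 5.81, 6.40, 7.12 and 14.3 CPM in Veh NPD and 18.3, 15.8, 10.3 and 20.7 in Cort NPD. Replicate 4 of Veh NPD stood within the cort range and the other 3 veh libraries below it, with a log2 fold change of 0.95 ± 0.30 (adjusted p = 0.048). This call was lost without any 1 of 9 of the 16 eWAT libraries and without TMM factors.

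The sterol reductases Lbr and Tm7sf2 can carry out the same step after Cyp51, and Lbr is also the lamin B receptor of the inner nuclear membrane. Lbr was the one enzyme called lower, at 37.7, 29.7, 38.4 and 22.5 CPM in Veh NPD, 13.4, 15.05, 24.7 and 26.4 in Cort NPD, 30.6, 27.7, 28.6 and 30.6 in Veh HPD and 19.1, 20.4, 23.3 and 22.8 in Cort HPD. On the NPD the groups overlapped and on the HPD they did not. The log2 difference was -0.69 ± 0.20 on the NPD (adjusted p = 0.029) and -0.45 ± 0.20 on the HPD (adjusted p = 0.21). Tm7sf2 was not called, with 5.19, 7.07, 3.83 and 7.10 CPM in Veh NPD and 5.91, 3.34, 1.89 and 3.38 in Cort NPD.

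**Figure D2:**
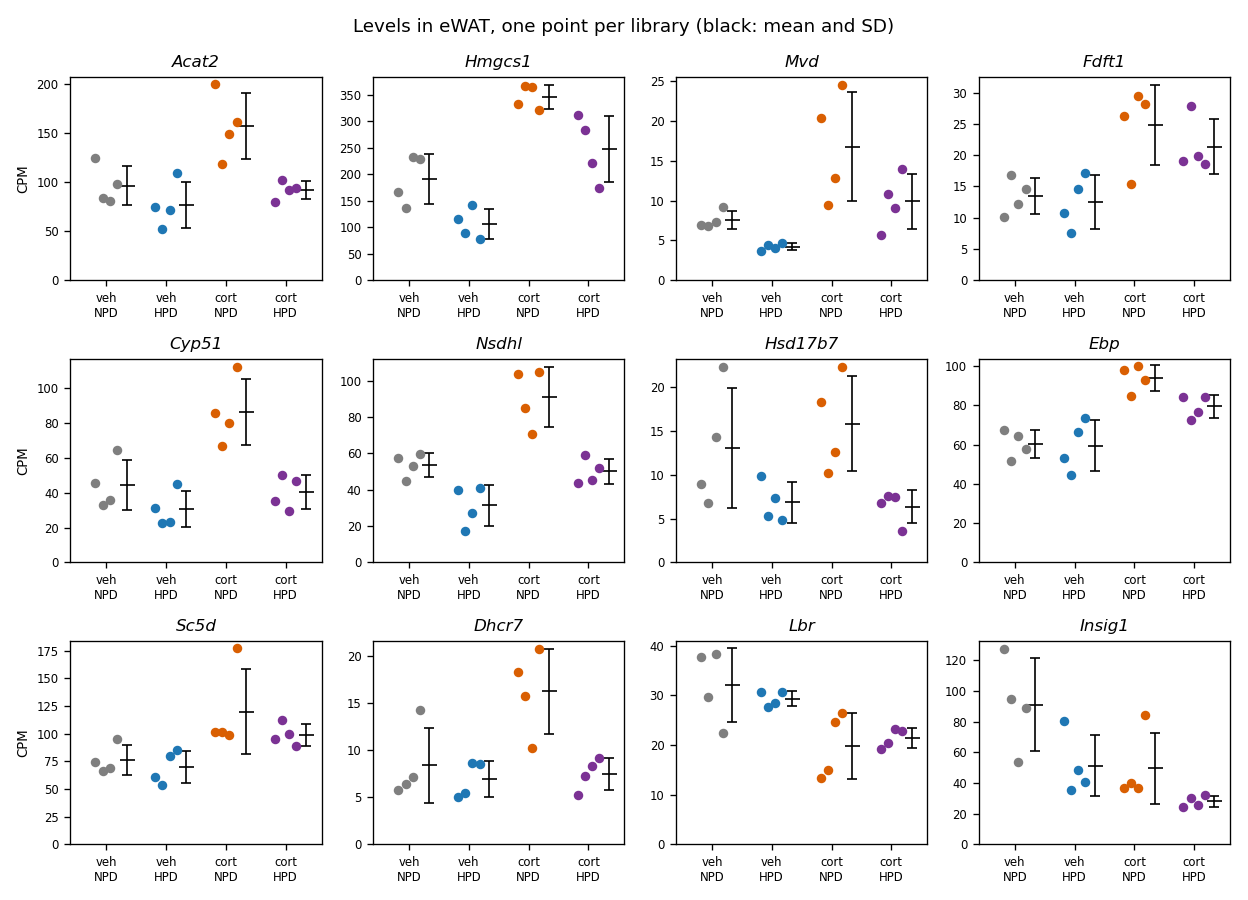
CPM (y axis, from 0) of 12 members in each eWAT library, by group (x axis), with the mean and SD of each group in black. By their means, Cort NPD is the highest group for Hmgcs1, Nsdhl and Cyp51, and Cort HPD lies between Cort NPD and Veh HPD for these 3 genes.

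None of the regulators, sterol carriers or esterifying enzymes was called with cort in eWAT on either diet. Insig1, which anchors Scap and is itself a target of SREBP2, stood at 127, 94.5, 53.6 and 89.1 CPM in Veh NPD, 36.8, 39.7, 37.0 and 84.5 in Cort NPD, 80.3, 35.7, 48.7 and 40.7 in Veh HPD and 24.3, 30.4, 25.5 and 31.9 in Cort HPD. On the HPD every cort library lay below every veh library, and on the NPD replicate 4 of Cort NPD (84.5 CPM) stood within the veh range. The log2 fold changes were -0.88 ± 0.33 (adjusted p = 0.14) and -0.87 ± 0.33 (adjusted p = 0.17). Srebf2 itself was at 18.4 ± 2.64 CPM in Veh NPD, 15.5 ± 5.78 in Cort NPD, 18.9 ± 1.68 in Veh HPD and 16.9 ± 7.66 in Cort HPD. Scap was at 32.5 ± 4.07 and 28.7 ± 5.01 CPM in the same NPD groups, and Insig2 ranged from 44.2 to 73.9 and from 45.2 to 52.8. Stard4, Aacs and Soat1 ranged from 6.25 to 11.3, from 40.4 to 73.3 and from 10.7 to 24.8 CPM over all 16 libraries.

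On the HPD, cort called 2 members, Hmgcs1 and Mvd, against 6.09% of all genes. The 13 members at an unadjusted p under 0.05 compared with 18.9% of all genes, and the median log2 fold change was 0.18 over the members and 0.41 over the enzymes, against 0.00 over all genes. All cort libraries lay above all veh libraries for 6 members on the NPD (Hmgcs1, Mvd, Cyp51, Nsdhl, Ebp, Sc5d), against 7.55% of all genes, and for 5 on the HPD (Hmgcs1, Mvd, Fdft1, Nsdhl, Sc5d), against 5.91%. All cort libraries lay below all veh libraries for 0 members on the NPD (7.39% of all genes) and for 3 on the HPD (Ggps1, Lbr, Insig1), against 5.39%. Ggps1 stood at 24.3, 24.2, 21.03 and 22.6 CPM in Veh HPD and 17.7, 12.8, 19.3 and 17.3 in Cort HPD, and was not called (adjusted p = 0.21). Whether the cort effect differed between the diets was tested as an interaction, which called 0 of 27 members (0.0132% of all genes) in edgeR, DESeq2 and limma voom, with 2 members at an unadjusted p under 0.05. Single libraries moved these counts. On the NPD 5 members were called without replicate 1 or 2 of Veh NPD, 3 without replicate 3 of Veh NPD or replicate 1 of Cort NPD, and 4 without replicate 4 of Cort NPD, and Hmgcs1 and Ebp stayed called without any 1 of the 16 libraries. On the HPD 4 members were called without replicate 1 of Veh HPD, 5 without replicate 4 of Veh HPD and 1 without replicate 4 of Cort HPD, the library with epididymis transcripts.

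The mean of the cort effects on both diets, a comparison chosen after seeing the data, uses all 16 eWAT libraries at once. It called 13 of 27 members, against 15.5% of all genes, and 11 to 13 members when any 1 library was left out, 11 without replicate 4 of Cort HPD. Hmgcs1 had a log2 fold change of 1.04 ± 0.14 (adjusted p = 2.6e-05) and Mvd of 1.19 ± 0.21 (adjusted p = 0.00018). The other members that rose were Acat2, Pmvk, Fdft1, Lss, Cyp51, Msmo1, Nsdhl, Ebp and Sc5d, by 0.43 to 0.83. Lbr fell by 0.57 ± 0.14 (adjusted p = 0.0053) and Insig1 by 0.88 ± 0.24 (adjusted p = 0.021). Summed hepatocyte markers in eWAT also differed between these groups, at 916 to 2485 CPM in the 8 veh libraries and 2080 to 3999 in the 8 cort libraries, with 1 of the 8 markers at 0 in both cort groups, and their part in the result was not tested. On the HPD the adipocyte markers summed to 40075 to 54526 CPM in the veh libraries and 30019 to 35999 in the cort libraries, without overlap, and on the NPD to 32584 to 44701 and 30965 to 37599. Red blood cell markers, 5 globin and heme genes, were at 5251 to 9273 CPM in Veh HPD and 12684 to 25856 in Cort HPD. No marker of either list was at 0 throughout a group, and the part of these lists in the cort values was not tested.

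On the HPD most enzymes of the pathway had lower levels in eWAT than on the NPD, in veh and in cort mice, although no member was called within either treatment. In veh mice 0 of 27 members were called by edgeR (0.0593% of all genes), 2 by DESeq2 and 0 by limma voom, with 11 at an unadjusted p under 0.05 against 8.03% of all genes. In cort mice 0 were called by edgeR (0.487% of all genes), 4 by DESeq2 and 2 by limma voom, with 12 at an unadjusted p under 0.05 against 9.81%. The median log2 fold change of HPD against NPD was -0.28 over the members and -0.45 over the enzymes in veh mice, and -0.31 and -0.55 in cort mice, against 0.00 and 0.02 over all genes. In both treatments 18 of the 20 enzymes had a negative value, against 50.4% of all genes in veh mice and 47.3% in cort mice. The effect in veh and that in cort mice rest on separate libraries.

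In cort mice every HPD library lay below every NPD library for 9 members, Acat2, Hmgcs1, Mvk, Cyp51, Nsdhl, Hsd17b7, Ebp, Dhcr7 and Insig1, against 3.65% of all genes. For Cyp51 the lowest Cort NPD library stood at 67.0 CPM and the highest Cort HPD library at 50.4, with a log2 fold change of -1.09 ± 0.25 (adjusted p = 0.073). Nsdhl had -0.86 ± 0.20 (adjusted p = 0.063), from 70.4 to 105 CPM on the NPD and 43.7 to 58.9 on the HPD. Acat2 had -0.77 ± 0.19 (adjusted p = 0.074). These 3 were the closest to the threshold. Dhcr7 stood at 18.3, 15.8, 10.3 and 20.7 CPM in Cort NPD and 5.24, 7.27, 8.31 and 9.20 in Cort HPD, a log2 fold change of -1.11 ± 0.30 (adjusted p = 0.12). Hsd17b7 stood at 18.3, 10.2, 12.6 and 22.3 CPM and 6.78, 7.58, 7.51 and 3.54 in these groups, with -1.32 ± 0.35 (adjusted p = 0.1). Both pairs of groups were apart, and neither gene passed the threshold.

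In veh mice the HPD libraries lay below the NPD libraries for 3 members, Mvd, Tm7sf2 and Nsdhl, against 2.22% of all genes, and above them for 1, Ggps1, against 2.06%. In cort mice they lay above for 0 members (3.02% of all genes). Mvd was at 6.78 to 9.16 CPM on the NPD and 3.68 to 4.67 on the HPD, a log2 fold change of -0.84 ± 0.30 (adjusted p = 0.39). Nsdhl was at 44.7 to 59.8 CPM and 17.1 to 40.7, with -0.78 ± 0.20 (adjusted p = 0.16). For Hmgcs1, which was at 166, 137, 232 and 228 CPM in Veh NPD and 116, 90.0, 142 and 78.3 in Veh HPD, the groups overlapped, with -0.84 ± 0.20 (adjusted p = 0.12). Leaving out 1 library let at most 1 member pass in veh mice, without replicate 3 of Veh HPD, and at most 3 in cort mice, where 1 passed without replicate 1 or 4 of Veh NPD, replicate 1 of Veh HPD or replicate 2 or 3 of Cort NPD, 2 without replicate 2 of Veh HPD and 3 without replicate 4 of Veh HPD. The veh libraries are not part of the comparison in cort mice and enter only the shared fit.

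The mean diet effect over veh and cort mice, also chosen after seeing the data, called 5 of 27 members, all lower on the HPD, against 1.3% of all genes. They were Acat2 (-0.55 ± 0.13, adjusted p = 0.036), Hmgcs1 (-0.66 ± 0.14, adjusted p = 0.019), Cyp51 (-0.82 ± 0.18, adjusted p = 0.025), Nsdhl (-0.82 ± 0.14, adjusted p = 0.0044) and Hsd17b7 (-1.13 ± 0.24, adjusted p = 0.015). They span the thiolase and synthase of the entry and 3 enzymes of the lanosterol steps. The median was -0.48 over the members, and 19 of the 20 enzymes had a negative value, against 47.2% of all genes. At an unadjusted p under 0.05 there were 14 members, against 12.4% of all genes. Nsdhl and Hsd17b7 stayed called without any 1 library, while the count was 2 without replicate 3 of Cort HPD, 3 without replicate 1 or 4 of Veh NPD, replicate 1 or 4 of Cort NPD or replicate 1 of Cort HPD, 5 without replicate 4 of Cort HPD, and at most 7. DESeq2 called 8. The red blood cell markers also moved with the diet in cort mice, at 3619 to 6491 CPM in Cort NPD against the 12684 to 25856 of Cort HPD, while they were at 3891 to 7133 in Veh NPD. Their part in the diet values was not tested.

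**Figure D3:**
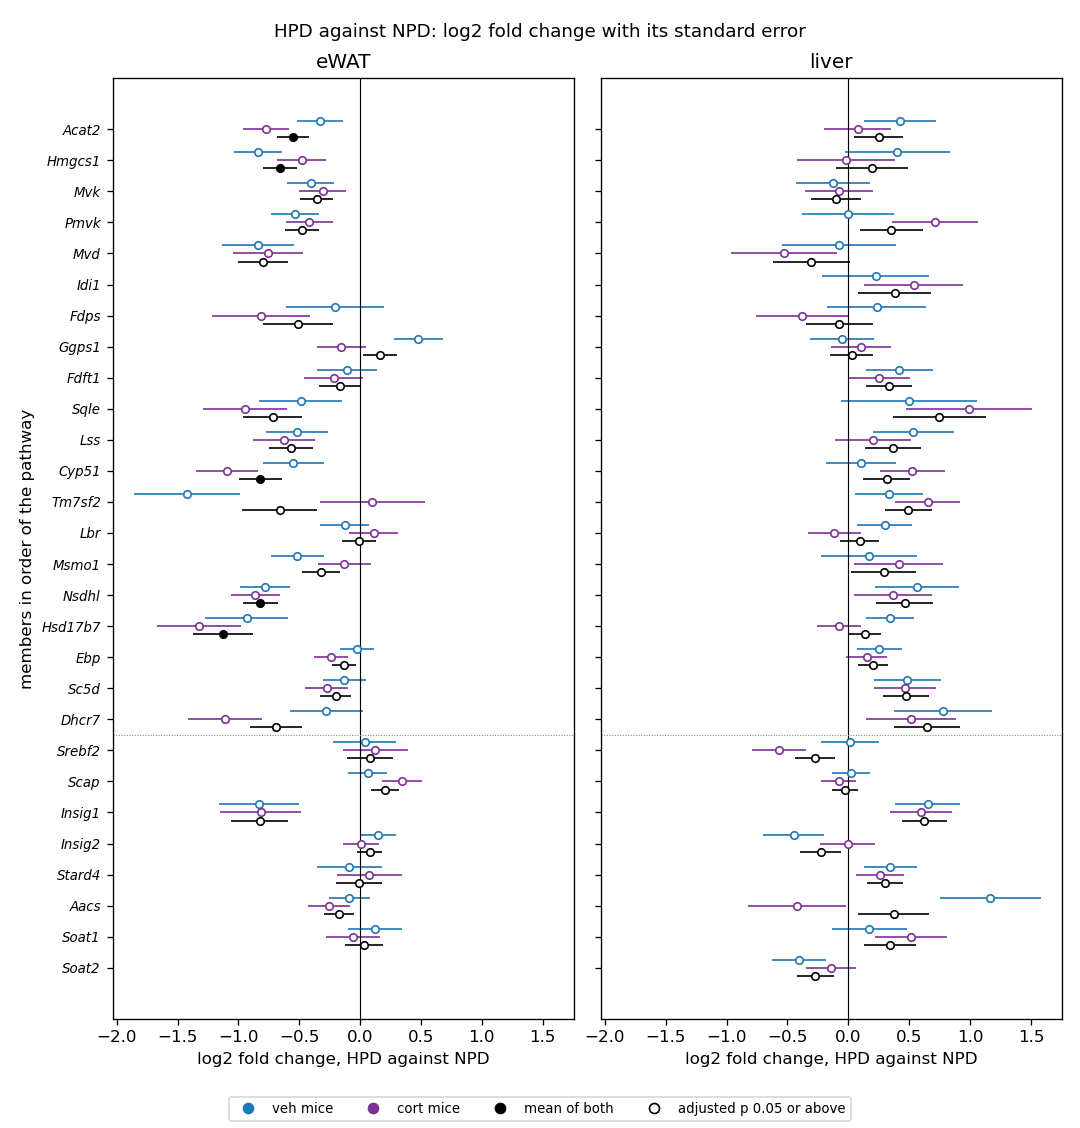
Log2 fold change of HPD against NPD (x axis, with SE bars) for the members in pathway order (y axis) in eWAT and liver, in veh mice in blue, in cort mice in purple and as the mean of both in black, with filled points where the adjusted p was under 0.05. Most enzymes lie to the left of 0 in eWAT, where the filled points are the means of Acat2, Hmgcs1, Cyp51, Nsdhl and Hsd17b7, and to the right of 0 in liver, where no point is filled.

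In liver, cort lowered 3 of 28 members on the NPD, against 12.6% of all genes, and on the HPD 4 were called (3 lower, 1 higher) against 9.89%, shares near the background. At an unadjusted p under 0.05 there were 4 members on the NPD, against 26.7% of all genes, and 6 on the HPD, against 24.3%. Of the 9 enzymes that cort raised in eWAT on the NPD, Sc5d alone was called in liver, as lower. The median log2 fold change of the members was -0.04 on the NPD and -0.17 on the HPD. Of the 20 enzymes, 10 and 8 had a positive value, against 49.6% and 49.5% of all genes. The median turned positive on the NPD without replicate 4 of Veh NPD (0.17) or replicate 3 of Cort NPD (0.12), and on the HPD without replicate 1 of Veh HPD (0.12). Sc5d and Insig1 were lower on both diets, Tm7sf2 on the NPD and Aacs on the HPD, and Insig2 was higher on the HPD.

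Of the enzymes, Sc5d stood at 170.1, 143, 222 and 292 CPM in Veh NPD, 93.7, 118, 72.8 and 164 in Cort NPD, 395, 234 and 238 in Veh HPD and 116, 159.6, 166 and 178 in Cort HPD. On the HPD the groups did not overlap, and on the NPD replicate 4 of Cort NPD lay between the veh libraries. The log2 difference was -0.88 ± 0.26 on the NPD (adjusted p = 0.031) and -0.90 ± 0.27 on the HPD (adjusted p = 0.045), opposite in sign to eWAT. Single libraries decided these calls, which were lost on the NPD without replicate 3 or 4 of Veh NPD or replicate 1, 2 or 3 of Cort NPD, without the filter on low counts, without TMM factors and in a fit of the 2 groups alone. On the HPD the call was lost without the filter and without any 1 of 10 of the 15 libraries, 7 of them of the 2 HPD groups. Tm7sf2 stood at 17.3, 19.9, 20.6 and 28.1 CPM in Veh NPD, 15.5, 11.6, 5.60 and 11.9 in Cort NPD, 32.0, 23.3 and 25.9 in Veh HPD and 9.58, 20.99, 18.6 and 20.9 in Cort HPD. Cort libraries were below veh libraries on both diets, with -0.94 ± 0.27 on the NPD (adjusted p = 0.026) and -0.62 ± 0.28 on the HPD (adjusted p = 0.18). The left-out replicate 4 of Veh HPD had 3.99 CPM of Tm7sf2, below all 15 others. Hmgcs1, which rose in eWAT on both diets, was at 71.5, 54.8, 97.3 and 176 CPM in Veh NPD and 95.5, 142, 65.5 and 189 in Cort NPD. These groups overlapped. The other 17 enzymes were not called in liver either, among them Cyp51 at 89.0 ± 24.3 CPM in Veh NPD and 78.3 ± 35.8 in Cort NPD and Mvd at 8.73 ± 4.04 and 9.60 ± 4.45.

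**Figure D4:**
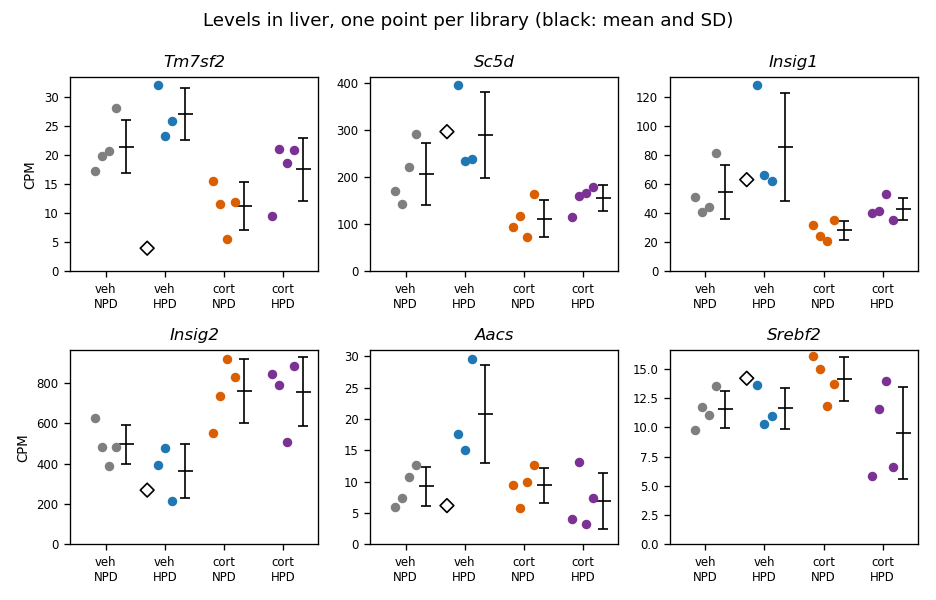
CPM (y axis, from 0) of 6 members in each liver library, by group (x axis), with the mean and SD of each group in black and the left-out replicate 4 of Veh HPD as an open diamond. By group mean, Sc5d and Insig1 are lower and Insig2 is higher with cort on either diet, and for Tm7sf2 the left-out library, at 3.99 CPM, lies below the other 15.

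Insig1 and Insig2 moved in opposite directions in liver on the HPD. Insig1 stood at 51.0, 40.8, 44.1 and 81.5 CPM in Veh NPD, 31.9, 24.5, 21.1 and 35.0 in Cort NPD, 128, 66.1 and 62.2 in Veh HPD and 40.4, 41.5, 53.1 and 35.3 in Cort HPD. Every cort library lay below every veh library on the same diet, with log2 fold changes of -0.95 ± 0.25 on the NPD (adjusted p = 0.019) and -1.01 ± 0.27 on the HPD (adjusted p = 0.023). Insig2, which has a liver transcript known to respond to fasting, stood at 625, 484, 387 and 480.2 CPM in Veh NPD, 550.4, 735, 919 and 830.1 in Cort NPD, 393, 478 and 215 in Veh HPD and 845, 789, 508 and 880.5 in Cort HPD. On the HPD all cort libraries were above all veh libraries, and on the NPD replicate 1 of Cort NPD was within the veh range. The log2 difference was 1.06 ± 0.25 on the HPD (adjusted p = 0.0099) and 0.62 ± 0.23 on the NPD (adjusted p = 0.082). In eWAT, where Insig1 was called lower in the mean of the cort effects, Insig2 was at 60.2 ± 7.09 CPM in Veh HPD and 47.8 ± 4.32 in Cort HPD and was not called.

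Aacs, which activates acetoacetate in the cytosol, stood in liver at 6.01, 7.43, 10.8 and 12.7 CPM in Veh NPD, 9.39, 5.78, 9.92 and 12.6 in Cort NPD, 17.6, 15.04 and 29.6 in Veh HPD and 4.07, 13.1, 3.29 and 7.42 in Cort HPD. Its highest value was replicate 3 of Veh HPD, and on the HPD the groups did not overlap, with a log2 fold change of -1.55 ± 0.42 (adjusted p = 0.031), while the NPD groups overlapped. Srebf2 was at 11.5 ± 1.55 CPM in Veh NPD, 14.1 ± 1.84 in Cort NPD, 11.6 ± 1.75 in Veh HPD and 9.51 ± 3.93 in Cort HPD. Scap ranged from 46.8 to 70.3 CPM, Stard4 from 29.8 to 63.4 and Soat2 from 4.83 to 9.45 over the 15 libraries, and Soat1 was at most 2.84. None of these 5 was called on either diet. A stretch of the 3′ end of Soat2 resembles Slco2a1 (128 bases, 95.3% identity).

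Leaving out single libraries moved the liver counts. With replicate 4 of Veh HPD added, 2 members were called on the NPD and 3 on the HPD. On the NPD none of the 3 was called without replicate 4 of Veh NPD or replicate 2 or 3 of Cort NPD. On the HPD 1 member was called without replicate 1 or 3 of Veh HPD or replicate 1 or 4 of Cort HPD, and 2 without replicate 2 or 3 of Cort HPD. Hepatocyte markers summed to 78156 to 120807 CPM in the veh libraries, 114619 to 137446 in Cort NPD and 158096 to 270202 in Cort HPD, where replicate 1 was highest and had the lowest level of 15 of the 20 enzymes in its group. No hepatocyte marker was at 0 throughout a liver group, and the part of this shift in the values was not tested. Steroid-producing cell markers summed to 12.01 to 76.02 CPM in the veh libraries (2 of the 5 at 0 throughout each group) and 449 to 704 in the cort libraries (3 of the 5 at 0). Macrophage markers summed to 113 to 186 CPM with veh and 53.6 to 132 with cort, and red blood cell markers to 5271 to 7622 in Cort HPD and 1358 to 3544 in the other groups. The part of these lists in the values was not tested. The mean of the cort effects on both diets, chosen after seeing the data, called 4 members against 20.4% of all genes, 4 or 5 without any 1 library, and 3 with replicate 4 of Veh HPD added. Tm7sf2 fell by 0.78 ± 0.19 (adjusted p = 0.0071), Sc5d by 0.89 ± 0.19 (adjusted p = 0.0025) and Insig1 by 0.98 ± 0.18 (adjusted p = 0.00094), and Insig2 rose by 0.84 ± 0.17 (adjusted p = 0.0013). Sc5d stayed called in this mean without any 1 library and under the 7 other settings tried.

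No member was called between the diets in liver. In veh mice edgeR called 0 of 28 (0.169% of all genes), DESeq2 0 and limma voom 0, with 2 at an unadjusted p under 0.05 against 9.4% of all genes. In cort mice the counts were 0 (5.88% of all genes), 0 and 0, with 3 at an unadjusted p under 0.05 against 21.3%. The interaction of diet and cort called 0 (0.113% of all genes) by edgeR, 0 by DESeq2 and 0 by limma voom, with 1 at an unadjusted p under 0.05. Medians were positive, at 0.28 in veh mice and 0.18 in cort mice, where those of all genes were 0.00 and -0.01. The mean over veh and cort mice, chosen after seeing the data, called 0 members against 4% of all genes (DESeq2 1, limma voom 0). Its median was 0.30, and 17 of the 20 enzymes were above 0, against 49.2% of all genes. Insig1 came closest, with 0.62 ± 0.18 (adjusted p = 0.063). In cort mice its HPD libraries (35.3 to 53.1 CPM) all lay above its NPD libraries (21.1 to 35.0). It was the only member of the 28 whose diet groups did not overlap there, and the share over all liver genes is not given here. In cort mice 1 member was called without replicate 4 of Cort NPD or replicate 1 or 3 of Cort HPD, and in the mean 1 without replicate 4 of Veh NPD, replicate 2 or 3 of Veh HPD, replicate 4 of Cort NPD or replicate 1 of Cort HPD.

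Within groups the enzymes tended to be high or low together in a library. Replicate 1 of liver Veh HPD had the highest level of its group for 20 of 20 enzymes, a position it held for 34.4% of all genes tested in liver. Replicate 4 of liver Veh NPD was highest for 17 (27.4% of all genes) and replicate 4 of liver Cort NPD for 16 (25.3%), while replicate 3 of liver Cort NPD was lowest for 17 (23.7%). In eWAT replicate 4 of Cort NPD was highest for 13 (25% of all genes) and replicate 2 of Veh HPD lowest for 14 (20.6%). Replicate 1 of liver Veh HPD also held 109 CPM of 5 exocrine pancreas markers, against at most 13.6 in the other liver libraries, and the part of this in its enzyme levels was not tested.

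**Figure D5:**
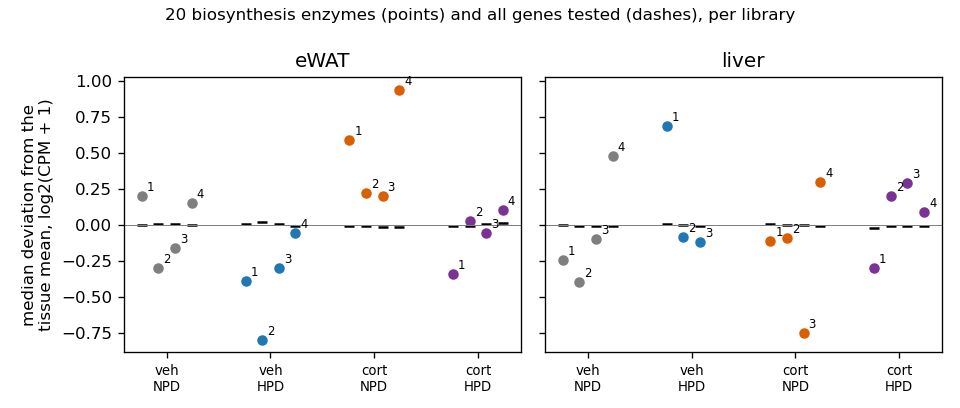
Median deviation of the 20 enzymes from their tissue mean in each library (y axis, log2(CPM + 1)), by group (x axis) in eWAT and liver, with each library drawn as its replicate number and short dashes for the median of all genes. In eWAT the Cort NPD group has the highest mean (libraries at 0.20 to 0.94), with its lowest library just below the highest of Veh NPD. In liver the spread within groups (-0.75 to 0.30 in Cort NPD) exceeds the differences between group means.

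The deviation of each enzyme's log2(CPM + 1) from its mean over the tissue was taken in each library, and its median over the 20 enzymes averaged 0.49 ± 0.35 (SD, n = 4) in eWAT Cort NPD, -0.02 ± 0.24 in Veh NPD, -0.06 ± 0.19 in Cort HPD and -0.38 ± 0.31 in Veh HPD. The ranges of Cort HPD and Veh NPD overlapped. Those of Cort NPD (lowest library 0.202) and Veh NPD (highest library 0.205) overlapped slightly. In liver the group means were -0.06 ± 0.38 in Veh NPD, 0.16 ± 0.45 in Veh HPD (n = 3), -0.16 ± 0.44 in Cort NPD and 0.07 ± 0.26 in Cort HPD, and all 4 groups overlapped. These are descriptions of the same libraries as above and were not tested.

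Whether the effects differed between the tissues was tested in 1 fit of 31 libraries (16482 genes). The cort effect on the NPD differed for 1 member, Sc5d, against 3.85% of all genes, and on the HPD for 2, Sc5d and Insig2, against 3.12%. For Sc5d the liver effect minus the eWAT effect was -1.49 ± 0.34 on the NPD (adjusted p = 0.0091) and -1.44 ± 0.35 on the HPD (adjusted p = 0.017). Insig2 had 1.36 ± 0.30 on the HPD (adjusted p = 0.0074). On the NPD 19 of the 20 enzymes had a more negative cort effect in liver, against 46.5% of all genes. The median difference was -0.39 over the members against 0.06 over all genes. For Hmgcs1, Mvd and the other enzymes called in eWAT with cort, apart from Sc5d, a difference between the tissues was not called. On the NPD 2 members were called without replicate 4 of eWAT Veh NPD or replicate 1 or 4 of liver Cort NPD, and on the HPD 1 without replicate 1 of eWAT Veh HPD or of liver Veh HPD.

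The diet effect in cort mice differed between the tissues for Cyp51, at 1.57 ± 0.40 for liver minus eWAT (adjusted p = 0.049, 1.23% of all genes called), a value near the threshold. It was not called without any 1 of 18 of the 31 libraries, among them replicate 4 of eWAT Cort HPD, and 2 members were called without replicate 4 of eWAT Veh HPD. With replicate 4 of liver Veh HPD added, 0 members were called here. The median difference over the members was 0.51, and 19 of the 20 enzymes were above 0, against 42.6% of all genes. The median of all genes was -0.12 (-0.01 without replicate 4 of eWAT Cort HPD, which held the epididymis transcripts). For the mean diet effect over veh and cort mice, chosen after seeing the data, Nsdhl (1.28 ± 0.29, adjusted p = 0.028), Hsd17b7 (1.26 ± 0.30, adjusted p = 0.034) and Insig1 (1.45 ± 0.32, adjusted p = 0.023) were called, against 0.795% of all genes. The diet effect on these 3 genes was lower in eWAT than in liver. The count was 0 without replicate 1 of liver Veh HPD, the library with the highest enzyme levels in its group, 1 without replicate 1 or 2 of liver Veh NPD or replicate 2 of liver Cort HPD, and 5 without replicate 4 of eWAT Veh HPD, replicate 3 of eWAT Cort NPD, replicate 4 of liver Veh NPD or replicate 1 of liver Cort HPD.

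Genes around the pathway were counted from lists written from general knowledge of it, with earlier results of these data known. Of 9 genes for SREBP processing and sterol-regulated degradation, Erlin1, of the endoplasmic reticulum membrane, was higher on the HPD in liver of cort mice by 0.61, 1 of 9 against 5.88% of all genes. A list of 4 genes for cytosolic acetyl-CoA supply also held Acat1, a mitochondrial thiolase, which enters its shares and medians. Slc25a1, the mitochondrial citrate carrier, was lower on the HPD in eWAT of cort mice by 1.27 ± 0.23 (adjusted p = 0.014, list median -1.52), 1 of 4 against 0.487% of all genes. In the mean diet effect Slc25a1 (-1.06 ± 0.16, adjusted p = 0.0026) and the acetyl-CoA synthetase Acss2 (-1.52 ± 0.27, adjusted p = 0.015) were called (list median -1.10), 2 of 4 against 1.3%. In liver Acat1 fell with cort on the NPD by 0.74 ± 0.21, 1 of 4 against 12.6%. Of 10 genes of other isoprenoid branches, Fntb, a subunit of protein farnesyltransferase, and Nus1, of dolichol synthesis, rose with cort in eWAT on the NPD by 0.91 and 0.48, with a list median of 0.44, which made 2 of 10 against 7.98% of all genes, and in liver Rabggtb fell by 0.58 on the NPD and Nus1 rose by 0.67 on the HPD, 1 of 10 on each diet against 12.6% and 9.89%.

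Of 8 other genes known to respond to SREBPs, Rdh11, a retinol dehydrogenase, rose with cort in eWAT by 0.86 ± 0.19 on the NPD (adjusted p = 0.0032) and 0.86 ± 0.19 on the HPD (adjusted p = 0.0044), and Pcyt2, of phosphatidylethanolamine synthesis, fell by 0.79 ± 0.22 on the NPD, so that 2 of 8 were called on the NPD, against 7.98% of all genes, and 1 on the HPD, against 6.09%. Me1, the cytosolic malic enzyme, was lower on the HPD in eWAT of cort mice, at -1.63 ± 0.27 (adjusted p = 0.013), 1 of 8 against 0.487%. In liver on the NPD 3 of the 8 fell with cort, against 12.6% of all genes, among them Srebf1, which encodes SREBP1 of fatty acid synthesis, by 1.25 ± 0.32 (adjusted p = 0.018, list median -0.34), and on the HPD Fads1, a fatty acid desaturase, fell by 1.29 ± 0.22 (adjusted p = 0.00055), 1 of 8 against 9.89%. Of 7 genes of LXR and sterol efflux, which respond when sterols are high, 2 were lower with cort in liver on each diet, against 12.6% and 9.89% of all genes, with list medians of -0.38 on the NPD and -0.61 on the HPD. In eWAT 5 of the 7 were tested, and 0 were called with cort on either diet and 1, higher, in the mean of both, against 15.5%.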

How the data were processed

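RNA-seq counts from 16 eWAT and 16 liver libraries were used. The authors made 3′-end (QuantSeq) libraries and deposited raw counts per Ensembl gene, with GRCm38 (mm10) as the build per the labels. The aligner, the counter and the strand setting were not given in the sources used here. Symbols were matched for 47224 of 47643 gene IDs. The 28 members and all gene lists were chosen with earlier results of these data known.

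For each tissue, genes passing filterByExpr of edgeR (minimum count 10, minimum total 15) were scaled with TMM factors (0.928 to 1.06 in eWAT, 0.754 to 1.11 in liver) and fitted with 1 mean per group by the robust quasi-likelihood test of edgeR (version 4.0.16 in R 4.3.3). Effects of both tissues were compared in 1 joint fit. P-values were adjusted by Benjamini-Hochberg over all genes tested, and genes with an adjusted p under 0.05 were called. CPM values are counts normalised to the TMM-scaled library total, and SE is the log2 fold change divided by the square root of F. Members were named in full, and of the other lists the 2 called genes with the smallest p in each direction and comparison. P-values set each difference against the spread between libraries of the same group, pooled over all groups of the fit and partly across genes. DESeq2 (1.42.0) and limma voom (3.58.1) were alternatives, and the means over both diets or both treatments were added after seeing the data. Libraries of 48 within-group pairs differed by more than sampling noise (chi-square per gene 15.3 to 207). Promoter letters came from RefSeq windows of GRCm38.p6, and 3′ ends were compared within the reference annotation.

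Within each tissue, same-numbered libraries of different groups did not deviate together on average, while single pairs reached a correlation of 0.24. Their deviations from the group means correlated at 0.0115 on average in eWAT (1 of 24 pairs above 0.1) and at 0.00472 in liver (6 of 21), so replicate numbers were not used as a block in the tests reported. Pairs with different numbers averaged -0.00368 in eWAT and -0.00163 in liver. Same-numbered eWAT and liver libraries were not compared in this way, and the joint fit took all libraries as separate.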

Additional observations from a re-analysis of the deposited data

Results flagged for a closer look

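In 15 of 192 groups of 4 libraries, 1 library stood far from the other 3 for a member (Dixon's test at the 95% level, which chance passes in about 1 in 20 groups). In eWAT Veh NPD these were Dhcr7 in replicate 4 (14.3 CPM), Aacs in replicate 3 (45.6) and Soat1 in replicate 1 (10.7). In eWAT Cort NPD, replicate 4 had 177 CPM of Sc5d and 84.5 of Insig1, both above the other 3, and replicate 2 had 52.8 of Insig2. In eWAT Cort HPD, replicate 4 had 1.03 CPM of Idi1 and 28.4 of Srebf2, and replicate 2 had 27.9 of Fdft1. Replicate 4 of eWAT Cort HPD is the library with 9081 CPM of epididymis and testis markers.

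In liver Veh NPD, replicate 4 stood above the others for Pmvk (42.4 CPM) and Cyp51 (125). In liver Cort HPD, replicate 1 stood below the others for Acat2 (25.6 CPM), Nsdhl (17.3) and Stard4 (29.8), and replicate 3 stood above them for Idi1 (5.89).

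Effects that differed between the tissues by a test of the difference itself were those of cort on Sc5d on the NPD (-1.49, log2 scale, liver minus eWAT) and the HPD (-1.44), of cort on Insig2 on the HPD (1.36), of diet on Cyp51 in cort mice (1.57), and the mean diet effects on Nsdhl (1.28), Hsd17b7 (1.26) and Insig1 (1.45).

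In the left-out replicate 4 of liver Veh HPD, 3 members stood above all 15 other liver libraries, namely Lbr (20.1 CPM), Soat1 (6.95) and Soat2 (10.5).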

How the results depend on the processing

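No gene named with a fold change turned its sign under any alternative, over 619 values from other settings and 1649 from leaving out 1 library, for 94 pairs of a gene and a comparison. Of the 619, 34 were no longer called and 27 were called only under the alternative, and of the 1649 these were 170 and 25. In eWAT the median log2 fold changes of the members kept their sign in every alternative and without any 1 library. In liver those of cort on the NPD ranged from -0.21 to 0.17 without 1 library, on the HPD from -0.28 to 0.12, as a mean from -0.18 to 0.06, and the interaction from -0.23 to 0.19 (0.03 with all 16 libraries).

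With cort in eWAT, the number of members called was 9 to 11 under the other settings on the NPD and 12 to 14 for the mean. Leaving out 1 library gave 3 to 10 on the NPD, 1 to 5 on the HPD and 11 to 13 for the mean. For the diet in eWAT it gave 0 or 1 in veh mice, 0 to 3 in cort mice and 2 to 7 for the mean. In liver it gave 0 to 4 with cort on the NPD, 1 to 4 on the HPD, 4 to 5 for the mean, and 0 or 1 for the diet in cort mice and for its mean. For the differences between tissues it gave 1 to 2 (cort on the NPD), 1 to 3 (cort on the HPD), 0 to 2 (diet in cort mice) and 0 to 5 (mean diet effect).

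DESeq2 called 2 members for the diet in eWAT of veh mice, 4 in cort mice and 8 for the mean, and 1 for the mean in liver. Limma voom called 2 for the diet in eWAT of cort mice, and a fit of only those 2 groups called 5. Without the filter on low counts, where more genes were tested, cort in liver gave 1 on either diet, and the differences between tissues gave 0 for the diet in cort mice and 1 for the mean diet effect. With all 16 liver libraries the tissue difference of the diet in cort mice gave 0. The causes were not tested.

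The replicate number as a block, which the labels do not tie to a shared animal or day, called 6 members for cort in eWAT on the HPD, 3 for the diet in eWAT of cort mice, 2 for the mean diet effect in liver and 2 for the cort effect between tissues on the NPD. Of the other counts none moved by more than 1.5 times with the block. No result of the document rests on it.

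Groups of 3 or 4 libraries limit every comparison, and single libraries decided many calls. Members at a few CPM, such as Idi1 in eWAT or Soat1 in liver, rest on few reads. Without TMM factors the median of all genes in liver shifted to -0.24 for cort on the HPD, -0.18 for the diet in cort mice, -0.22 for the interaction and -0.14 for the mean cort effect. Counts near 3′ ends shared with similar genes (Acat2, Idi1, Fdps, Ggps1, Soat2) or opposite-strand genes (Fdft1, Cyp51) are less certain.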
